A study of Mus musculus with 16 samples.

Results

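The proximal tubule genes described here are 35 genes for transporters, endocytosis receptors and segment enzymes of the kidney's proximal tubule, chosen by name among the 40879 gene symbols of the count files. The organic anion and cation transporters of the Slc22 family were left out of the set. All 35 were found and all 35 passed the filter on low counts, with a lowest count of 81 in any library (Slc9a3). Their RNA was counted in whole-kidney libraries by QuantSeq, which reads the 3′ end of transcripts. The 16 libraries came from male wild-type C57BL/6 mice. Young mice (5 libraries) were 3 months of age. Old mice (5 libraries) were untreated aged mice, with no age at sampling in the sources used here. Old + YM mice (3 libraries) received Yukmijihwang-tang and Old + PM mice (3 libraries) received Palmijihwang-tang, both traditional herbal formulas. Oral dosing was 100 mg/kg/day, 5 days weekly, between 19 and 24 months of age. In 1 passage the labels name YM where the PM dose is described, so the PM libraries were assigned by their group name. All aged groups had 5 months of acclimatization. The labels do not tie each library to its own mouse, so p-values reflect only variation among these libraries, which may be technical.

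The proximal tubule is the first segment after the glomerulus and reclaims most of the filtered glucose, amino acids, phosphate, bicarbonate and small proteins. Its cells carry sodium-coupled carriers on the brush border, exit carriers on the blood side, and the megalin and cubilin receptors that take up filtered protein. The same cells make glucose from lactate and amino acids, and burn fatty acids for energy. Hnf4a and the HNF1 factors are transcription factors that maintain expression of many of these genes. In whole-kidney RNA, fewer proximal tubule cells and less RNA per cell cannot be told apart.

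Promoter sequences are shown for 3 of the genes that differed between Old and Young kidneys, because each holds the HNF1 core GTTAAT near its start. They come from RefSeq on GRCm38.p6 and run from 250 bases before to 50 bases after an annotated start, read 5′ to 3′ on the gene's strand. The capitals mark GTTAAT or its reverse complement. Acsm2 lies at chr7:119554090-119554389 on the plus strand, G6pc at chr11:101367466-101367765 on the plus strand, and the Slc7a7 window, at 1 of its annotated starts, at chr14:54409423-54409722 on the minus strand.
Acsm2: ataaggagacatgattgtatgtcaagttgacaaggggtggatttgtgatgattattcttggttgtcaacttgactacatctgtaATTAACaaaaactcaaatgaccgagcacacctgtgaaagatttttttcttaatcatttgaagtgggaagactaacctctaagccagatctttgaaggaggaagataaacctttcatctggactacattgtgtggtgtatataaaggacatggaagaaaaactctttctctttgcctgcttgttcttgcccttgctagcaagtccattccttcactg
G6pc: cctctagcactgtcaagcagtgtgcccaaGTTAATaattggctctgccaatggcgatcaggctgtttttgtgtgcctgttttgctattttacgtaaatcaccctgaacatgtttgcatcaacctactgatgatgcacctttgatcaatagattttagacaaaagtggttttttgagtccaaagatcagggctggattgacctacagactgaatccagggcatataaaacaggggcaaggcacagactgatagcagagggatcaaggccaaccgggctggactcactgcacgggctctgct
Slc7a7: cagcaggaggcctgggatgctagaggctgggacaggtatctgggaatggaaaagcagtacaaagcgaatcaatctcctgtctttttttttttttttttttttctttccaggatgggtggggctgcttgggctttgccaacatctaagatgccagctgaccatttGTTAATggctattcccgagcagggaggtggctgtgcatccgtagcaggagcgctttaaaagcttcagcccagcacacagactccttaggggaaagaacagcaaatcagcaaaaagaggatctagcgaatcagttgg
The match began at -166 in Acsm2, at -221 in G6pc and at -86 in Slc7a7, counted from the start. Windows were at hand for 30 of the 35 genes, 41 windows in all. GTTAAT on either strand was present in 10 of these 41 windows (24.4%) and in 2332 of all 32851 RefSeq windows of the same length (7.1%). Beside the 3 genes shown, those with a match were Dab2, Hnf4a, Miox, Pck1, Slc34a1, Slc3a1 and Slc5a10. None of these was among the genes that differed between Old and Young kidneys. The HNF4 element CAAAGTCCA, also searched on both strands, occurred in 1 gene of the set, Slc3a1, and in 0.475% of all windows. These are matches of letters in a short window and say nothing about binding.

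Old and Young kidneys differed in 11 of the 35 genes (31.4%) by edgeR's quasi-likelihood test at an adjusted p of 0.05, against 13.6% of all 14665 genes tested. Of these, 4 were higher in Old, where 6.47% of all genes were higher, and 7 were lower, where 7.13% of all genes were lower. The higher genes were the amino acid transporters Slc7a7, Slc7a9 and Slc6a19 and the lactate transporter Slc5a12. Lower were the amino acid transporters Slc7a13 and Slc6a18, the anion transporters Slc17a3 and Slc17a1, the gluconeogenic enzyme G6pc, and the fatty acid enzymes Acsm2 and Slc27a2. The median log2 difference was -0.15 over the 35 genes and 0.02 over all genes tested, and 25 of the 35 estimates were below 0. Libraries of the groups did not overlap in 11 of the 35 genes, 3 higher and 8 lower, beside 9.19% of all genes. At an unadjusted p under 0.05 stood 14 of the 35 (40%), beside 28.1% of all genes. The set was chosen with earlier results of these data known, so these shares are description and no independent evidence. The levels below are CPM, gene counts relative to library size, on TMM-scaled library sizes, and differences are log2 values of the edgeR fit with their standard errors (SE).

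**Figure D1:**
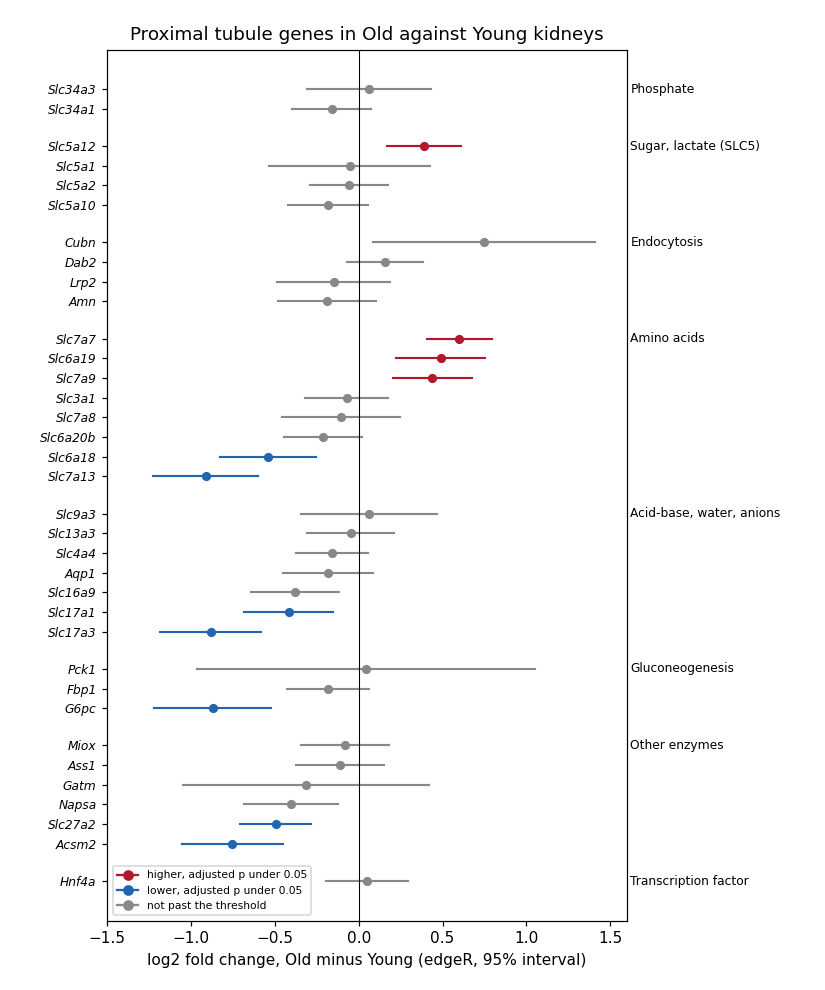
Log2 difference between Old and Young (x axis) for each of the 35 genes, ordered by role, with the 95% interval of the edgeR fit. Red marks genes past the threshold and higher in Old, blue those past it and lower, and grey the rest, and the 11 called genes run from -0.91 (Slc7a13) to 0.60 (Slc7a7).

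Amino acid transport held the most called genes, 5 of 8, in both directions. Slc7a7 forms the exit carrier for cationic amino acids on the blood side of the cell and lies on chromosome 14 at 54369442 to 54417780, minus strand, in GRCm38. Its level was 110, 114, 106, 135 and 136 CPM in Young 1 to 5, and 177, 185, 187, 183 and 179 CPM in Old 1 to 5. Every Old library was above every Young library, and the Old values were closely grouped. The difference was 0.60 (SE 0.09, adjusted p = 0.000357 by edgeR), a 1.52-fold higher level. The 3′ end of Slc7a7 overlaps Oxa1l on the opposite strand, and whether counting used strand is not given in the sources. Oxa1l itself differed by 0.02 (SE 0.10, adjusted p = 0.924 by edgeR). Slc34a1, Slc5a2, Slc5a10, Slc3a1, Slc6a20b and Slc16a9 also overlap a gene or pseudogene on the opposite strand at their 3′ ends. The highest partner count in any library was 0 for Pfn3 (Slc34a1), 83 for Grap (Slc5a10), 145 for Prepl (Slc3a1) and 875 for Sacm1l (Slc6a20b). Partners of Slc5a2 and Slc16a9 have no counts listed.

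Slc7a9 is the light chain of the luminal cystine and cationic amino acid carrier, and Slc3a1 is its heavy chain. Slc7a9 (chromosome 7, 35448796 to 35466036, plus strand) stood at 147, 140, 136, 152 and 158 CPM in Young and 204, 226, 231, 169 and 164 CPM in Old. The lowest Old libraries, Old 5 and Old 4, were just above the highest Young library. The difference was 0.44 (SE 0.11, adjusted p = 0.0137 by edgeR). Slc3a1 did not pass, at -0.07 with a 95% interval of -0.32 to 0.17, so the chains of this carrier are given with different calls, and the difference between them was not tested.

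Slc6a19 is the main brush border carrier of neutral amino acids and Slc6a18 a related carrier. The genes are neighbours on chromosome 13, both on the minus strand and 1721 bases apart, Slc6a18 at 73661752 to 73678023 and Slc6a19 at 73679745 to 73704865. Slc6a19 measured 185, 195, 174, 228 and 286 CPM in Young and 285, 304, 357, 265 and 288 CPM in Old. Young 5 lay inside the Old range, so the groups overlapped, and the difference was 0.49 (SE 0.13, adjusted p = 0.0148 by edgeR). Slc6a18 measured 303, 345, 308, 331 and 221 CPM in Young and 196, 228, 177, 267 and 169 CPM in Old. Young 5 was again the library inside the Old range, and Slc6a18 was lower in Old by -0.54 (SE 0.14, adjusted p = 0.0129 by edgeR).

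Slc7a13 is a late-segment carrier of aspartate, glutamate and cystine, with the highest mean level among the amino acid transporters here. It lies on chromosome 4 at 19818725 to 19842218, plus strand. Young libraries held 402, 456, 461, 528 and 548 CPM and Old libraries 284, 295, 285, 238 and 170 CPM. The groups were apart, with Old 5 lowest. The difference of -0.91 (SE 0.15, adjusted p = 0.000716 by edgeR) was a 1.88-fold lower level, the largest of the 35 genes in that direction. The remaining amino acid transporters, Slc7a8 at -0.11 and Slc6a20b at -0.21, did not pass.

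Slc5a12 carries lactate and other monocarboxylates in the early tubule and was the called gene among 4 of the SLC5 family. On chromosome 2 (110597298 to 110647779, plus strand), it had 434, 343, 384, 408 and 454 CPM in Young and 567, 462, 585, 520 and 512 CPM in Old. Old 2 was the Old library closest to Young. The difference was 0.39 (SE 0.11, adjusted p = 0.0191 by edgeR). The glucose transporters Slc5a2 of the early and Slc5a1 of the late tubule did not pass, at -0.06 (95% interval -0.29 to 0.18) and -0.05 (-0.53 to 0.42). Slc5a10, a fructose and mannose transporter, stood at -0.18 (-0.42 to 0.06).

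Among 7 transporters for acid, water and organic anions, 2 were called, both of the SLC17 family, which moves urate and phosphate. Slc17a3 and Slc17a1 lie side by side on the plus strand of chromosome 13, at 23839434 to 23860716 and 23867750 to 23895730, 7033 bases apart. Slc17a3 stood at 474, 481, 497, 502 and 514 CPM in Young and at 321, 302, 313, 229 and 174 CPM in Old. The Young libraries were closely grouped and the Old ones fell to their lowest in Old 5. Slc17a3 was 1.84-fold lower in Old (-0.88, SE 0.14, adjusted p = 0.000665 by edgeR). Slc17a1 had 652, 636, 697, 733 and 594 CPM in Young and 461, 584, 546, 546 and 341 CPM in Old. Old 2 came within a small distance of Young 5, and the difference was -0.42 (SE 0.13, adjusted p = 0.0332 by edgeR). Close relatives such as these could share reads, and the sources do not state how reads with several alignments were counted.

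The other genes of that group did not pass. Slc4a4, which returns bicarbonate to the blood and has the highest mean level of the group, had 1818, 1725, 1800, 1769 and 1544 CPM in Young and 1540, 1479, 1719, 1660 and 1346 CPM in Old. The groups overlapped, at -0.16 (95% interval -0.38 to 0.06). Slc16a9, a monocarboxylate and carnitine carrier, did not overlap between groups but stayed just outside the threshold, at -0.38 (SE 0.13, adjusted p = 0.0513 by edgeR). The water channel Aqp1 stood at -0.18, the sodium-proton exchanger Slc9a3 at 0.06 and the dicarboxylate carrier Slc13a3 at -0.05.

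Gluconeogenesis had 1 called gene of 3. G6pc is the catalytic subunit of glucose-6-phosphatase, which releases free glucose, and lies on chromosome 11 at 101367561 to 101377903, plus strand. It had 443, 519, 460, 653 and 855 CPM in Young and 379, 322, 360, 319 and 221 CPM in Old. The groups were apart, although Young itself ranged widely, and the difference was -0.87 (SE 0.17, adjusted p = 0.00215 by edgeR), 1.83-fold lower. Fbp1, fructose-1,6-bisphosphatase, had 606, 637, 612, 585 and 636 CPM in Young and 580, 631, 638, 479 and 381 CPM in Old. Old 4 and Old 5 were low and the other Old libraries were within or close to the Young range, at -0.18 (95% interval -0.43 to 0.06). Pck1, the enzyme that commits carbon to glucose, could not be placed, at 0.04 with an interval of -0.97 to 1.05.

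Of 6 other enzymes, the 2 called ones act on fatty acids. Acsm2 is a mitochondrial medium-chain acyl-CoA synthetase (chromosome 7, 119554340 to 119600690, plus strand) and had the highest mean level of this group. Young libraries held 6293, 5891, 5793, 6948 and 6046 CPM and Old libraries 3770, 4031, 4290, 4102 and 2171 CPM. The groups were far apart and Old 5 stood well below the other Old libraries. The difference was -0.75 (SE 0.14, adjusted p = 0.00186 by edgeR), 1.69-fold lower. Slc27a2, a very long-chain acyl-CoA synthetase and fatty acid transport protein on chromosome 2 (126552407 to 126588243, plus strand), had 1161, 1118, 1146, 1198 and 1153 CPM in Young and 958, 919, 813, 789 and 623 CPM in Old. Young was closely grouped and above every Old library, at -0.49 (SE 0.10, adjusted p = 0.00326 by edgeR). The aspartic protease Napsa did not overlap between groups but missed the threshold, at -0.40 (SE 0.14, adjusted p = 0.0525 by edgeR). Miox, which opens the ring of inositol, stood at -0.08, Ass1 of the arginine pathway at -0.11, and Gatm of creatine synthesis at -0.31, none of them called.

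**Figure D2:**
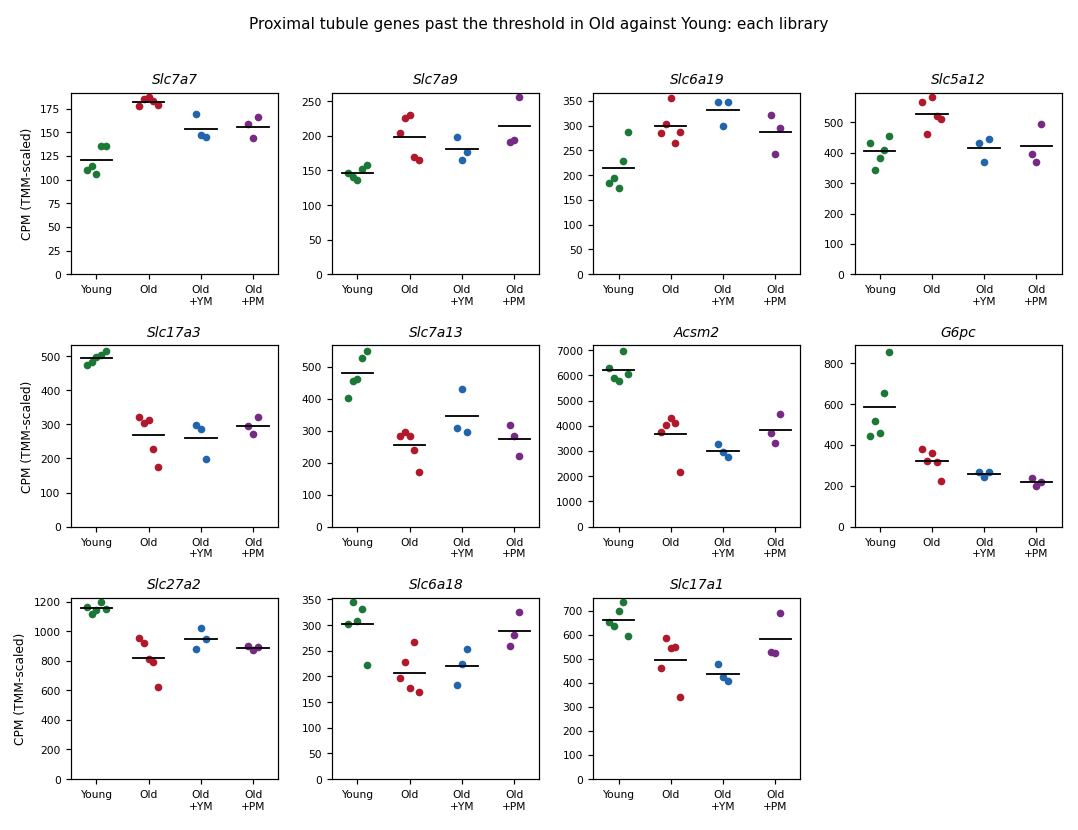
CPM (y axis) in each library of the 4 groups for the 11 genes past the threshold in Old against Young. Points are libraries and bars are group means, and in Slc7a7 all Old libraries (177 to 187) lie above all Young libraries (106 to 136).

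No gene of phosphate transport or endocytosis passed, nor did Hnf4a. Slc34a1, the main phosphate carrier, had 5264, 5002, 4654, 5169 and 4594 CPM in Young and 4488, 4979, 4568, 4736 and 3295 CPM in Old. Apart from Old 5 the groups were close, at -0.16 (95% interval -0.40 to 0.07), and Slc34a3 stood at 0.06. Lrp2, megalin, had 723, 687, 774, 856 and 1182 CPM in Young and 859, 809, 942, 539 and 655 CPM in Old. The groups overlapped widely, at -0.15 (-0.49 to 0.19). Its partner receptor Cubn stood at 0.75 (SE 0.31, adjusted p = 0.131 by edgeR), the adaptor Dab2 at 0.15 and the cubilin partner Amn at -0.19. Hnf4a had 281, 308, 321, 300 and 383 CPM in Young and 326, 349, 419, 252 and 303 CPM in Old. It differed by 0.05 (-0.19 to 0.29), and the libraries of both groups were mixed. In short segment lists, beside 13.6% of all genes called, 1 of 3 early genes (Slc5a12, with Slc5a2 and Slc4a4 not called) was higher and 1 of 3 late genes (Slc7a13, with Slc5a1 and Slc5a10 not called) lower.

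Of the 11 calls, 8 held under all 26 other settings tried. Slc6a19 lost its call without Young 1, Young 2, Young 3 or Old 3 (adjusted p = 0.0513 to 0.0585 by edgeR). Slc5a12 lost it without Young 2, Young 3 or Old 3 (0.0540 to 0.0654), and leaving out any 1 of these 3 libraries took the higher genes from 4 to 2. Slc17a1 lost its call in 9 settings (adjusted p = 0.0564 to 0.112): with upper quartile scaling, with only Young and Old in the fit, without any 1 of Young 1 to 4, Old 1 or Old 5, and without Old 4 and Old 5 together. With upper quartile scaling, 1104 of all genes were higher and 758 lower, against 949 and 1046 with TMM, while the set had 4 higher and 6 lower. Without Young 5, Old 4, Old 5 and Old + PM 3, libraries chosen after their values were seen, 17 of the 35 were called, 7 higher and 10 lower. Calls over all genes rose as well, to 1547 higher and 1694 lower.

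A few genes varied widely inside groups. The standard deviation of log2 CPM within groups was 0.84 for Pck1, 0.54 for Gatm, 0.51 for Cubn and 0.41 for Slc5a1, and 0.12 for Slc7a7, the least variable. Pck1 had 389, 460, 479, 420 and 1003 CPM in Young, 792, 747, 693, 112 and 489 CPM in Old, 654, 746 and 851 CPM in Old + YM, and 640, 531 and 202 CPM in Old + PM. Young 5 was far above the other Young libraries, and Old 4 and Old + PM 3 were the lowest of their groups. Cubn had 38.5, 40.5, 51.7, 54.8 and 99.9 CPM in Young and 112, 101, 129, 49.0 and 86.6 CPM in Old. The same Young 5 was high and Old 4 low. The summed level of 16 clock genes was also lowest in Old 4 among Old libraries (412 CPM, with an Old maximum of 951), ran from 402 to 530 CPM in Young, 539 to 872 in Old + YM and 558 to 816 in Old + PM, and was lowest in Old + PM 3 among the Old + PM libraries. Adipocyte markers, 7 genes, summed to 23.9 to 141 CPM in Young, highest in Young 5, and to 39.5 to 71.1 CPM in Old, lowest in Old 4. They summed to 96.7 to 169 CPM in Old + YM and to 22.9 to 80.1 CPM in Old + PM, lowest in Old + PM 3. Fabp4 held most of these sums, with means of 48.6 CPM in Young, 48.5 in Old, 96.3 in Old + YM and 40.9 in Old + PM. Cfd had means of 8.07 CPM in Young, 3.87 in Old, 22.6 in Old + YM and 5.63 in Old + PM. The other markers had means of at most 1.95 CPM in Young and Old, 2.36 in Old + YM and 1.26 in Old + PM. Pck1 is also expressed in fat. The part of the clock and adipocyte levels in the spread of Pck1 and Cubn was not tested.

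**Figure D3:**
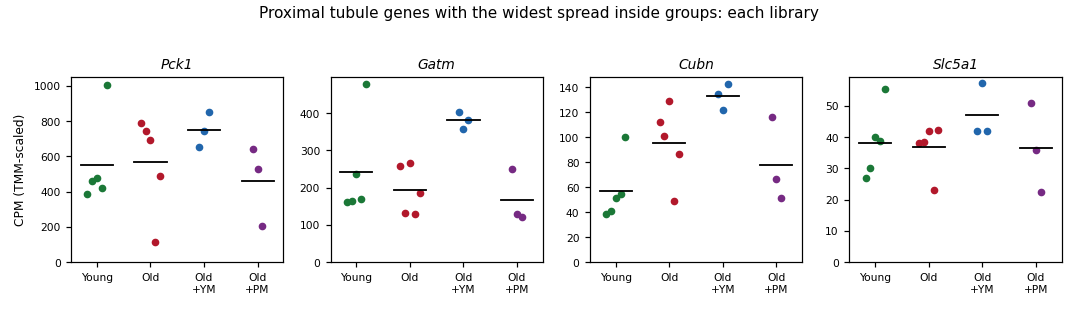
CPM (y axis) in each library of the 4 groups for Pck1, Gatm, Cubn and Slc5a1, the 4 genes with the widest spread inside groups. Points are libraries and bars are group means, and Pck1 in Young 5 (1003) lies above the other Young libraries (389 to 479).

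Other proximal tubule genes were read from companion lists of 72 transporters and enzymes, of which 70 were tested. In Old against Young 21 (30%) were called, 6 higher and 15 lower, beside 13.6% of all genes, 6.47% higher and 7.13% lower. The median was -0.18, against 0.02 over all genes. The companion lists were also chosen with earlier results of these data known, so their shares are no independent evidence. Of 28 transporters 3 were higher and 4 lower, and of 42 enzymes 3 were higher and 11 lower. Abcc4, an efflux pump for anions and nucleotides, rose by 1.59, while the scaffold Pdzk1 (-0.60) and the endosomal chloride transporter Clcn5 (-0.57) were lower. Among enzymes, Hao2, a peroxisomal hydroxy acid oxidase, was higher by 0.94, while the mercapturate deacetylase Acy3 (-1.13), the brush border enzyme Ggt1 (-0.80) and Ace, angiotensin-converting enzyme (-1.15), were lower. Adjusted p-values by edgeR for these named genes ran from 1.97e-05 for Hao2 to 0.0135 for Clcn5.

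Lists of markers for other states and cells differed in how many genes were called in the same comparison, beside 13.6% of all genes. Of 14 tubule injury markers, 8 were higher in Old, Sox9 and Vcam1 among them, and their summed level was 544 to 613 CPM in Young, 640 to 1017 in Old, 744 to 1006 in Old + YM and 749 to 767 in Old + PM. Most of these sums came from Spp1 and from Clu, which was not called (means of 336 CPM in Young and 379 in Old). Of 12 macrophage markers, 9 were higher, with summed levels of 188 to 230 CPM in Young and 218 to 1407 in Old, highest in Old 5, and of 284 to 369 in Old + YM and 331 to 623 in Old + PM. Of 9 male-biased kidney genes, 6 were lower and 1 higher, with summed levels of 29088 to 37222 CPM in Young, 10404 to 20533 in Old, 13390 to 16099 in Old + YM and 16786 to 22498 in Old + PM. Kap held most of these sums, with means of 32249 CPM in Young, 15932 in Old, 14281.5 in Old + YM and 19099.5 in Old + PM. B and plasma cell markers had 3 of 6 higher, clock genes 9 higher and 3 lower of 16, thick ascending limb markers 1 of 10 higher, distal tubule and collecting duct markers 1 higher and 2 lower of 12, podocyte and endothelial markers 2 higher and 1 lower of 12, and adipocyte markers 0 of 7. The thick ascending limb list, at 10%, was near the share of all genes. The adipocyte list is short and most of its genes had low levels, so its count cannot be set against that share. No tested marker was at 0 over a whole group. The filter on low counts favours this outcome, so it does not show that the kidney's segments were represented. The marker lists too were chosen with earlier results of these data known. The part of these lists in the results was not tested.

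No gene of the set was called for either formula against Old. In Old + YM against Old, 0 of 35 passed by edgeR, beside 0.0205% of all genes, and 6 of 35 (17.1%) had an unadjusted p under 0.05, beside 9.47%. Groups did not overlap in 6 of 35 (17.1%), 3 in each direction, beside 9.12%. DESeq2 and limma-voom also called 0 of the 35, and 48 and 4 of all genes. The median log2 difference was -0.04, against -0.03 over all genes. In Old + PM against Old, 0 of 35 passed by edgeR, beside 0% of all genes, and 6 (17.1%) had an unadjusted p under 0.05, beside 6.16%. Groups did not overlap in 2 of 35 (5.71%), beside 4.02%. DESeq2 and limma-voom called 0 of the 35 and 0 of all genes, and the median was 0.07, against -0.02. Both comparisons share the same Old libraries. None of the companion or marker lists had a called gene in them.

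The genes with the smallest p in Old + YM against Old were Miox, Slc5a12 and Slc7a13, none passing. Miox had 2572, 2886, 2591, 4000 and 2686 CPM in Old and 2323, 2036 and 1920 CPM in Old + YM. The treated libraries were all below Old, at -0.49 (SE 0.15, adjusted p = 0.296 by edgeR). Slc5a12 had 433, 371 and 447 CPM in Old + YM, below every Old library, at -0.34 (SE 0.12, adjusted p = 0.388 by edgeR). Slc7a13 had 309, 430 and 296 CPM there, at 0.44 (SE 0.17, adjusted p = 0.443 by edgeR). Old + YM lay above Old in each library, with Old + YM 2 inside the Young range.

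In Old + PM against Old the smallest p belonged to Slc6a18, Slc5a10 and Napsa, each with an adjusted p of 0.790 by edgeR. Slc6a18 had 259, 280 and 325 CPM in Old + PM, at 0.47 (SE 0.16), with only Old 4 (267 CPM) reaching that range. Slc5a10 had 118, 148, 124, 118 and 120 CPM in Old and 164, 166 and 165 CPM in Old + PM. The treated libraries were close together and above all Old libraries, at 0.40 (SE 0.13). Napsa had 986, 1224, 1025, 892 and 1107 CPM in Old and 1682, 1509 and 1087 CPM in Old + PM. Old + PM 3 was inside the Old range, and the difference was 0.45 (SE 0.15).

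The 11 genes called in Old against Young had the following levels after treatment. None of them was called against Old for either formula. G6pc had 270, 241 and 266 CPM in Old + YM and 240, 197 and 219 CPM in Old + PM, all below every Young library. Acsm2 had 3295, 2960 and 2761 CPM in Old + YM and 3711, 3322 and 4463 CPM in Old + PM. These too were below every Young library. Slc7a7 had 169, 147 and 145 CPM in Old + YM and 158, 144 and 166 CPM in Old + PM, between the Young and the Old libraries, with no call against Old. Slc17a3 had 299, 286 and 198 CPM in Old + YM and 296, 270 and 322 CPM in Old + PM. Slc27a2 had 878, 1023 and 947 CPM in Old + YM and 897, 876 and 897 CPM in Old + PM. Both genes stayed below every Young library in the treated groups.

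For the other called genes, the place of the treated libraries relative to the Young range differed by gene and formula. Slc5a12 had 371 to 447 CPM in Old + YM and 397, 371 and 495 CPM in Old + PM, beside 343 to 454 CPM in Young, with Old + PM 3 above that range. Slc6a18 had 183, 225 and 253 CPM in Old + YM and 259 to 325 CPM in Old + PM, beside 221 to 345 CPM in Young. All Old + PM libraries and all but 1 of the Old + YM libraries were thus within the Young range, which overlapped Old itself. Slc17a1 had 477, 423 and 408 CPM in Old + YM, all below Young, and 528, 524 and 690 CPM in Old + PM, where Old + PM 3 lay within the Young range of 594 to 733 CPM. Slc6a19 had 348, 300 and 347 CPM in Old + YM, above every Young library, and 321, 244 and 294 CPM in Old + PM, where Old + PM 2 was within the Young range of 174 to 286 CPM. For Slc7a13, Old + YM 2 was within the Young range and the other treated libraries were below it, with 318, 284 and 221 CPM in Old + PM. Slc7a9 had 198, 166 and 177 CPM in Old + YM and 191, 194 and 256 CPM in Old + PM. Every treated library of Slc7a9 was above every Young library.

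**Figure D4:**
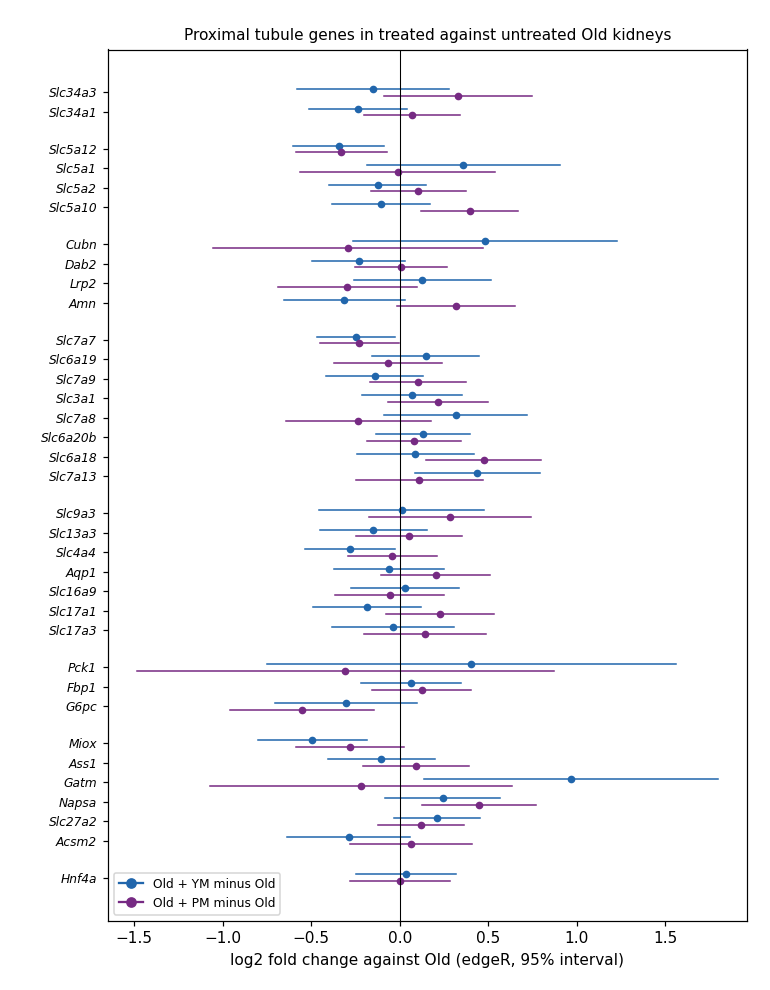
Log2 difference from Old (x axis) for each of the 35 genes, ordered by role, with the 95% interval of the edgeR fit. Blue is Old + YM and purple Old + PM, and none of the 70 differences passed the threshold.

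Old + PM and Old + YM were compared directly. Of the 35 genes 0 passed by edgeR, beside 0% of all genes, and 8 (22.9%) had an unadjusted p under 0.05, beside 12.8%. DESeq2 and limma-voom called 0 of the 35, and 59 and 4 of all genes. Groups of 3 libraries did not overlap in 13 of 35 (37.1%), 8 higher and 5 lower in Old + PM, beside 23.8% of all genes. Amn had 286, 236 and 260 CPM in Old + YM and 326, 371 and 513 CPM in Old + PM, at 0.63 (95% interval 0.25 to 1.01, adjusted p = 0.258 by edgeR). Slc5a10 had 87.5, 132 and 131 CPM in Old + YM, at 0.50 (0.19 to 0.81, adjusted p = 0.258 by edgeR). Gatm had 403, 358 and 382 CPM in Old + YM and 251, 130 and 121 CPM in Old + PM. The Gatm groups were apart, at -1.18 (-2.14 to -0.23, adjusted p = 0.317 by edgeR), and these intervals do not show that the formulas act alike.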

How the data were processed

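Kidney RNA of 16 libraries was measured by 3′ sequencing. As deposited, each file lists unnormalized counts by gene symbol. Bowtie2, bedtools and mm10 are named per the submitters' processing notes, with versions, annotation and strand setting not given in the sources. Totals ran from 8223008 to 10914515 counts per library, and 1 CPM on TMM-scaled sizes is 7.62 to 11.3 counts. No libraries of a group agreed within sampling noise.

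The analysis used edgeR 4.0.16 in R 4.3.3: filterByExpr (minimum count 10) left 14665 genes, sizes were scaled by TMM, and all 16 libraries entered 1 robust quasi-likelihood fit with a term for group. Tests were two-sided, with Benjamini-Hochberg adjustment over all 14665 genes and a threshold of 0.05. Intervals are 95% and cover the spread between libraries. DESeq2 1.42.0, limma-voom (limma 3.58.1), other scalings and filters, and omitted libraries were tried as alternatives. The scripts were tested on simulated data.

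The members and lists were chosen with earlier results of these data known. Every gene past the threshold, the gene of highest mean level in each role group, and the 3 genes of smallest p where none passed are given in full; up to 4 genes per companion list and up to 2 per marker list are named, except 1 companion transporter that is not reported here. Of the companion genes, Tmem27 was not matched and Slc36a2 was removed by the filter. Coordinates are from GENCODE M21 (GRCm38) and promoters from RefSeq.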

Additional observations from a re-analysis of the deposited data

Results flagged for a closer look

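In 8 of the 70 combinations of a gene of the set and a group of 5 libraries, 1 library stood apart from the others by Dixon's criterion. Chance alone marks about 1 in 20 groups. In Young, library 5 was high for 3 genes. Pck1 was at 1003 CPM there, with 389 to 479 CPM in the other Young libraries. Gatm was at 478 CPM, with 161 to 236 in the others, and Cubn at 99.9 CPM, with 38.5 to 54.8. In Old, library 4 had 23.2 CPM of Slc5a1, with 38.0 to 42.3 in the others, and 4000.2 CPM of Miox, with 2572 to 2886 in the others. Old 5 had 282 CPM of Slc5a2, with 408 to 445 in the others, and 2171 CPM of Acsm2, with 3770 to 4290. Old 2 had 148 CPM of Slc5a10, with 118 to 124 in the others.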

How the results depend on the processing

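In Old against Young, 8 to 13 of the 35 genes were called when 1 library was left out, 2 to 5 higher and 6 to 9 lower, beside 11, 4 and 7 with all libraries. Without Young 5, Old 4, Old 5 and Old + PM 3, chosen after seeing the data, 17 were called, 7 higher and 10 lower, and in Old + YM against Old 1 was called, Acsm2 (-0.42, adjusted p = 0.0325 by edgeR). The count over all genes in Old + YM against Old also changed under this omission, within the range given below, so the Acsm2 call is not particular to the set. The same omission gave 1547 higher and 1694 lower over all genes in Old against Young. No direction of a called gene reversed. Over all genes, calls in Old against Young ran from 1208 to 3241 (1995 as reported), in Old + YM against Old from 0 to 110 (3), in Old + PM against Old from 0 to 10 (0) and in Old + PM against Old + YM from 0 to 128 (0). Higher companion genes ran from 4 to 13 (6). The replicate block gave 13 called genes of the set, 4 higher and 9 lower, and 0 in the other comparisons. Over all genes it gave 924 higher and 1181 lower in Old against Young, beside 949 and 1046 without it. Equal replicate numbers showed no clear pairing of the libraries. Of 20 same-numbered pairs, 3 had a correlation of deviations over 0.1 (range -0.304 to 0.158). The own number correlated best in 9 of 40 cases. In groups this small, such correlations cannot exclude a shared day or litter. Groups of 3 limit the treated comparisons, and 1 CPM is 7.62 counts at the smallest TMM-scaled library size.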

Other observations

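Across the 35 genes, the first principal component of log2 CPM held 42.1% of the variance between the 16 libraries and the second 30.3%. Pck1 (0.48), Cubn (0.45), Gatm (0.38) and Slc5a1 (0.24) had the highest loadings on the first, and Acsm2 (-0.21), Amn (-0.20) and Slc6a18 (-0.19) the lowest. Young 5 was at 1.14 and the other Young libraries between -1.76 and -0.77. Old 4 was at -2.16 and Old + PM 3 at -1.96, and the Old + YM libraries between 1.54 and 1.75. Old 5 was the lowest Old library for 18 of the 35 genes and Old 4 for 13. Young 5 was the highest Young library for 17 genes and the lowest for 8, and Young 1 was the lowest for 13. Old + PM 2 was the lowest Old + PM library for 19. The same counts were not made over all genes.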
